A study of Mus musculus with 10 samples.

Results

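Liver transcription after a fast and after refeeding was compared in mice with an intact Nampt gene, by RNA-seq of 3 WT Fasting and 2 WT Refed livers. These are 5 of the 10 liver libraries of the series, chosen by their labels, and the other 5, from fasted mice without hepatocyte Nampt (NAMPT LKO), did not enter the comparison. All 5 mice were of the C57B/6J background, aged 12 weeks and homozygous for a Nampt allele flanked by LoxP sites. They lacked the Albumin-cre transgene that deletes this allele in hepatocytes. The study describes such mice as littermates of NAMPT LKO mice. The labels give 24 h without food for the WT Fasting mice, and 22 h without food followed by 2 h of refeeding for the WT Refed mice. The study's text, which states that male mice were used, instead describes a shorter fast and mice fed at random, so the groups are named here by the labels. The WT Refed livers are therefore not livers of mice that had never been fasted, and a fasting effect and a refeeding effect cannot be told apart. The labels call these libraries separate samples, 1 mouse each, and give no batch. 13064 genes were above 1 CPM (counts scaled to a common library total) in at least 1 of the 5 libraries and were tested.

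In the fasted liver, insulin is low and glucagon and glucocorticoids are high. The FOXO, CREB and glucocorticoid receptor transcription factors then drive the enzymes that make glucose, and PPAR alpha, a receptor for fatty acids, drives those that burn fat. A meal raises insulin and amino acids and brings back the synthesis of lipids, sterols, ribosomes and secreted proteins. Hepatocytes secrete most plasma proteins, which are translocated into the endoplasmic reticulum (ER), folded by chaperones, glycosylated and carried to the Golgi in coated vesicles. When unfolded proteins accumulate, the sensors ATF6, IRE and PERK raise chaperone transcription, in part through the ER stress element of promoters.

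Total counts were 33947232 to 43434139 in the WT Fasting and 42170825 to 43218540 in the WT Refed libraries. All 6 hepatocyte markers were tested, and their summed level was 84015 to 104492 CPM in the WT Fasting and 81056 to 84190.1 CPM in the WT Refed livers. Pancreatic markers, read as a sign of other tissue in the sample, were at 0 in all 5 libraries for 5 of the 6 genes. Red cell markers varied within both groups, from 428 to 1334 CPM and from 522 to 1164 CPM. WT Fasting mouse 3 stood apart from the other livers. Its 28 tested interferon and antigen presentation genes lay on average 3.09 log2 units above the WT Refed mean, against -0.39 and -0.31 in mice 1 and 2, and 28 of 28 were highest in this liver. Its 7 Kupffer cell (liver macrophage) markers summed to 470 CPM, against 221 to 234 CPM in the other WT Fasting and 183 to 230 CPM in the WT Refed livers. Its mitochondrial genome took 7.42% of counts, against 10.96% to 12.53% in the other 4 libraries. In bulk tissue, fewer cells of a type and less RNA per cell cannot be told apart. Some calls and counts of calls are given with and without this liver. Others are given with all 5 livers only, and some of these also moved without it. For example, 9 genes for degradation of ER proteins were called lower with it and 11 without it. For disulphide isomerases and their oxidases the counts were 9 and 8.

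**Figure D1:**
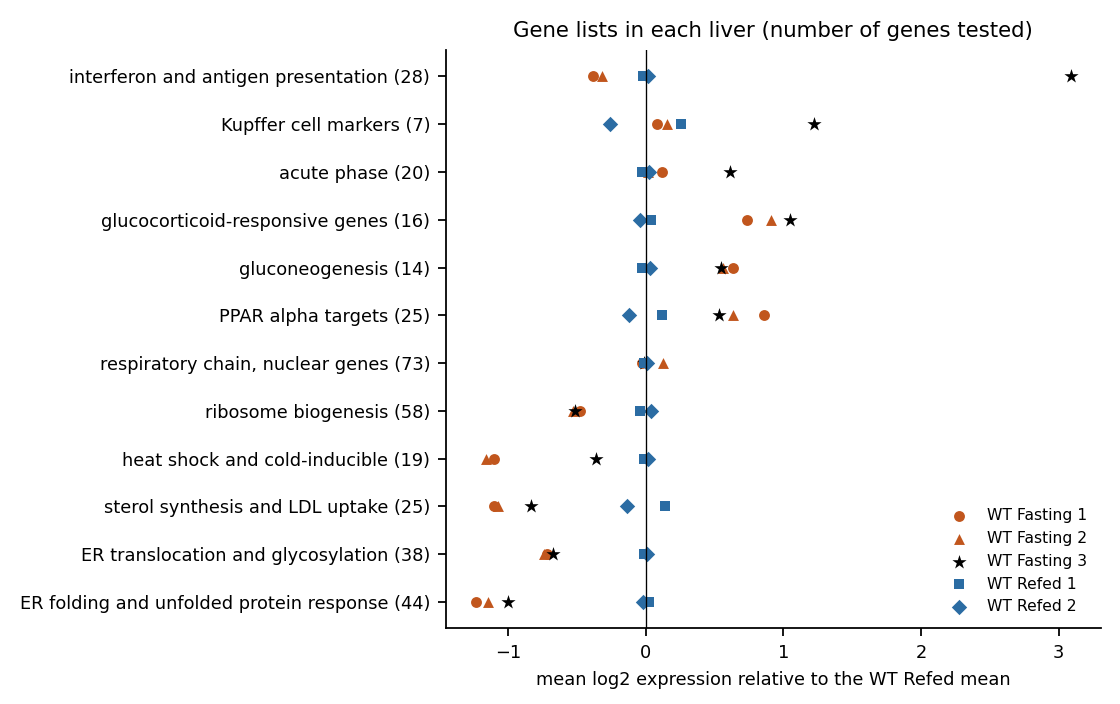
Mean log2 expression of 12 gene lists in each of the 5 livers, relative to the mean of the WT Refed livers; each point is 1 liver and the number of genes tested stands in brackets. WT Fasting mouse 3 (star) lay at 3.09 for interferon genes while mice 1 and 2 lay at -0.39 and -0.31, and all 3 WT Fasting livers lay below both WT Refed livers for the ER, sterol, heat shock and ribosome biogenesis lists.

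Of the 13064 genes tested, 1649 (12.6%) were called at an adjusted p of 0.05 or less, of which 574 (4.39%) were higher and 1075 (8.23%) lower in the WT Fasting livers. All adjusted p values are from edgeR's quasi-likelihood test with Benjamini-Hochberg adjustment over all genes tested, on counts scaled by TMM. Differences of at least 1 on the log2 scale were seen in 187 of the genes that rose and 249 of those that fell. The median difference was 0.73 for genes that rose, -0.69 for genes that fell and 0.02 for all genes. In no called gene did the groups overlap, and 50.2% of all genes tested did not overlap between the groups. The genes called higher took 6.19% to 7.19% of counts in the WT Fasting and 3.75% to 3.91% in the WT Refed libraries, and the genes called lower 4.27% to 4.76% and 8.44% to 8.54%. Without WT Fasting mouse 3 the number called was 2513, which included 1613 of the 1649. Without WT Fasting mouse 2 it was 573 and without mouse 1 it was 919. With either WT Refed library left out, edgeR's quasi-likelihood test called 0 genes, with 2415 or 2137 genes at an unadjusted p under 0.05 and the smallest adjusted p at 0.0542 or 0.0584. In those fits 1 refed liver remained and the fasted livers alone gave the spread. Other tests were not run without these libraries. Of the 1649 called genes, 1646 to 1649 were tested in each fit without 1 library, and all of those kept their direction. A fit of all 10 libraries called 957 genes, 375 higher and 582 lower.

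**Figure D2:**
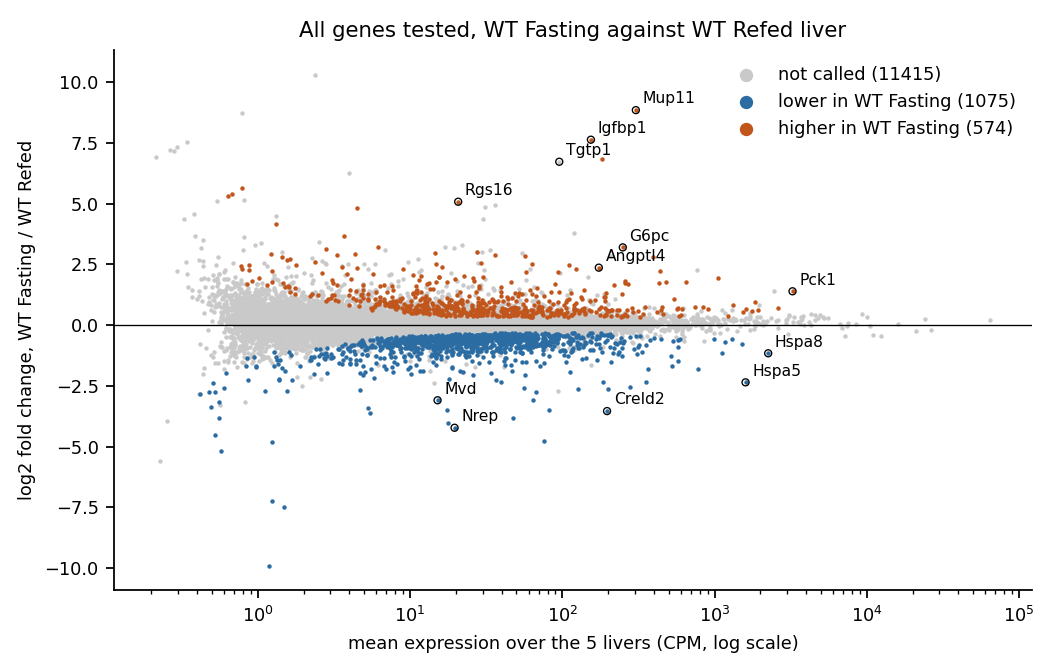
Log2 fold change between WT Fasting and WT Refed livers against mean expression in CPM (log scale) for the 13064 genes tested; each point is 1 gene. Genes called lower (1075) and higher (574) lie on either side of 0, with Igfbp1, Rgs16 and G6pc among the largest rises and Nrep, Creld2 and Mvd among the largest falls, and Tgtp1, whose circle is grey inside, was not called.

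The genes with the largest differences were named by rank among called protein-coding genes that averaged 5 CPM or more. Changes are given as the log2 fold change ± its standard error (SE), and gene positions are those of GRCm38. The 10 largest rises were in Mup11, Igfbp1, Mup14, Rgs16, G6pc, Depp1, Pdk4, Ip6k2, Mt2 and Mup15, with log2 fold changes from 2.80 to 8.85. Igfbp1 (ENSMUSG00000020429, chromosome 11, 7197782 to 7202546, plus strand) encodes a secreted binding protein of insulin-like growth factors that insulin normally represses. It was at 570.4, 92.7 and 105 CPM in the WT Fasting livers and 1.79 and 0.782 CPM in the WT Refed livers (log2 fold change 7.63 ± 1.25 SE, adjusted p = 0.0183). The groups were far apart, but mouse 1 was several times above mice 2 and 3. Rgs16, a regulator that speeds GTP hydrolysis by G proteins, was at 20.8, 24.1 and 56.6 CPM in the WT Fasting livers and 1.26 and 0.735 CPM in the WT Refed livers (log2 fold change 5.08 ± 0.61 SE, adjusted p = 0.00867). Depp1, a FOXO-responsive gene, was at 51.6, 38.2 and 37.3 against 6.76 and 3.86 CPM, and Ip6k2, an inositol hexakisphosphate kinase, at 65.3, 52.8 and 47.2 against 7.77 and 7.21 CPM, with log2 fold changes of 2.99, adjusted p = 0.00561, and 2.88, adjusted p = 0.00319. For these 3 genes too, every WT Fasting liver lay above both WT Refed livers. 3 of the 10 are major urinary protein genes, a family of near-identical copies on chromosome 4. Because the authors counted uniquely aligned reads, the split of reads among these copies is uncertain. Of the family's 20 protein-coding genes tested, 11 were called higher and 0 lower, and 2 were called higher in a fit of all 10 libraries. Their summed level, which the split among copies affects less, was 14529, 11188 and 11211 CPM in the WT Fasting and 8645 and 7573 CPM in the WT Refed livers. Mup11 alone was at 685, 335 and 498 CPM in the WT Fasting livers and 1.21 and 0.972 CPM in the WT Refed livers, close to 0 in both refed mice (adjusted p = 0.00289, and 0.12 in the fit of all 10 libraries).

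The 10 largest falls were in Nrep, Derl3, Onecut1, Creld2, Angptl8, Hsd3b5, Cish, Mvd, Sdf2l1 and Keg1, with log2 fold changes from -4.23 to -2.74. Derl3, Creld2 and Sdf2l1 belong to the ER folding genes described next. Onecut1, a liver transcription factor of the cut homeobox class, was at 9.49, 6.73 and 6.63 CPM in the WT Fasting livers and 68.7 and 146 CPM in the WT Refed livers (log2 fold change -3.81 ± 0.35 SE, adjusted p = 0.00485). Angptl8, an insulin-induced inhibitor of lipoprotein lipase, was at 6.26, 18.6 and 23.2 against 155 and 207 CPM (log2 fold change -3.50 ± 0.51 SE, adjusted p = 0.014). Cish, a target of growth hormone and STAT5, was at 1.12, 0.409 and 1.69 against 10.4 and 12.8 CPM (log2 fold change -3.41 ± 0.48 SE, adjusted p = 0.0124). In each of the 3 genes all WT Fasting livers lay below both WT Refed livers. Nrep was at 3.47, 1.92 and 1.85 against 45.5 and 45.3 CPM, Hsd3b5, a steroid dehydrogenase, at 2.77, 5.85 and 1.89 against 35.0 and 42.1 CPM, and Keg1, a relative of glycine N-acyltransferase, at 18.2, 19.8 and 23.4 against 127 and 148 CPM. Serpina4-ps1, a pseudogene and so outside this ranking, was at 12.9, 3.68 and 3.05 against 153 and 206 CPM (-4.77, adjusted p = 0.0116), and was chosen after its values were seen.

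**Figure D3:**
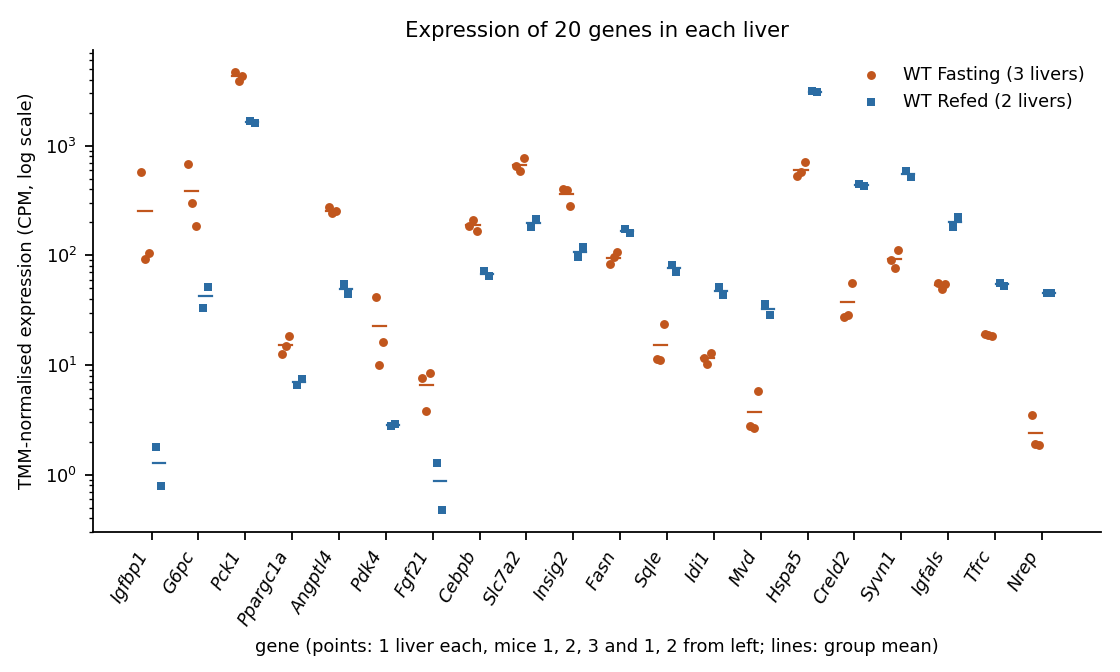
TMM-normalized expression in CPM (log scale) of 20 genes in each liver; points are single livers, with mice 1, 2 and 3 of WT Fasting and 1 and 2 of WT Refed from left to right, and lines are group means. The groups did not overlap in any of the 20 genes, and in Igfbp1, G6pc and Pdk4 mouse 1 of WT Fasting lay farthest from the WT Refed livers.

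By number of genes called, the broadest difference among the gene lists was in the secretory pathway, which was lower in the fasted livers. With marker lists left out, 1376 of the 1649 called genes were in no list. Of the 1200 listed genes tested, 273 were called, against 12.6% of all genes. Over the lists of ER folding, of ER translocation and glycosylation, and of COPII and COPI transport, 77 of 113 genes tested (68.1%) were called lower and 0 higher, against 8.23% and 4.39% of all genes. Their summed expression was 12127, 12447 and 13388 CPM in the WT Fasting livers and 24695 and 24163 CPM in the WT Refed livers, with no overlap. Among ER chaperones and lectins, 13 of 15 were called lower, with a median log2 fold change of -1.41. Hspa5 (ENSMUSG00000026864, chromosome 2, 34771970 to 34777547, plus strand), the major ER chaperone BiP, was at 526, 572 and 712 CPM in the WT Fasting livers and 3119 and 3061 CPM in the WT Refed livers, a 5.12-fold difference (log2 fold change -2.36 ± 0.15 SE, adjusted p = 0.00319). Hsp90b1, the ER member of the HSP90 family, was at 355, 394 and 417 against 1356 and 1345 CPM (log2 fold change -1.80 ± 0.10 SE, adjusted p = 0.00289). Creld2 (ENSMUSG00000023272, chromosome 15, 88819646 to 88826683, plus strand), an ER stress-inducible protein with disulphide isomerase activity, was at 27.5, 28.4 and 56.4 against 444 and 427 CPM (log2 fold change -3.54 ± 0.33 SE, adjusted p = 0.00544). Each was low in all 3 fasted mice, and mouse 3 was the highest of them for all 3 genes. Sdf2l1, a partner of BiP, was at 10.5, 15.2 and 22.9 against 136 and 136 CPM (-3.07, adjusted p = 0.00562), and Dnajb11, a co-chaperone of BiP, at 73.1, 79.9 and 87.8 against 213 and 214 CPM (-1.41, adjusted p = 0.00319). The 2 that were not called were Fkbp2 (-0.08, adjusted p = 0.6) and Dnajc10 (0.24, adjusted p = 0.21), named after their values were seen. All 9 protein disulphide isomerases and their oxidases were called lower, led by Pdia4 at 159.6, 183 and 207 against 675 and 612 CPM (-1.81, adjusted p = 0.00319).

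Of 13 genes for degradation of ER proteins, 9 were called lower. Derl3, a channel component of that pathway, was at 2.23, 3.74 and 1.59 CPM in the WT Fasting livers and 53.5 and 28.0 CPM in the WT Refed livers (log2 fold change -4.03 ± 0.42 SE, adjusted p = 0.00597). Syvn1, its ubiquitin ligase, was at 89.8, 77.1 and 112 against 584 and 521 CPM (log2 fold change -2.57 ± 0.17 SE, adjusted p = 0.00319). Herpud1, another member of the pathway, was at 315, 504 and 800.1 against 858 and 663 CPM and was not called (-0.50, adjusted p = 0.405), and Os9 differed little (-0.05, adjusted p = 0.723). Of the sensors and transcription factors of the unfolded protein response, 5 of 7 were called lower. Xbp1, the factor that IRE activates by splicing its mRNA, was at 117, 125 and 135 against 276 and 264 CPM (log2 fold change -1.11 ± 0.09 SE, adjusted p = 0.0046). Spliced and unspliced Xbp1 mRNA were not separated in gene counts. The sensors Atf6 (-0.35, adjusted p = 0.0739) and Ern1, which encodes IRE (-0.19, adjusted p = 0.405), were not called.

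**Figure D4:**
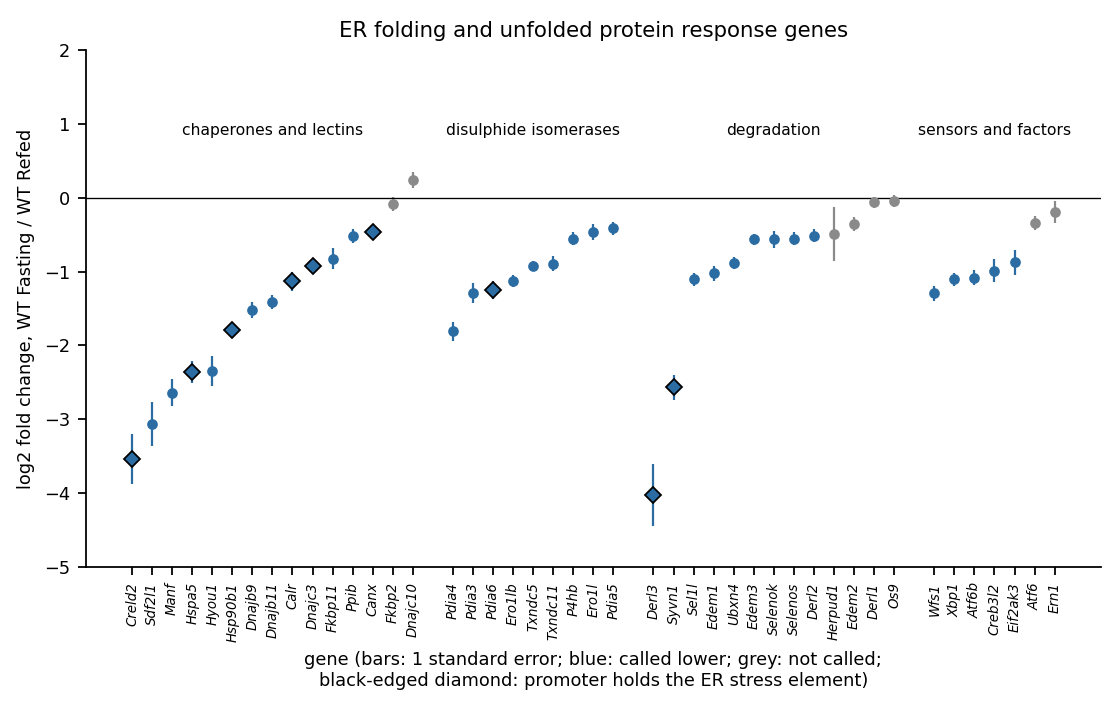
Log2 fold change (WT Fasting over WT Refed) with 1 standard error for the 44 ER folding and unfolded protein response genes tested, grouped by role; blue points were called lower, grey points were not called, and black-edged diamonds have the ER stress element in their promoter. 36 of the 44 were called lower and none higher, and all 9 genes with the element were among those called lower.

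The promoters of these genes were read for the ER stress element because the sensors act through it. RefSeq promoters (build GRCm38.p6, 250 bases before to 50 after a start) were searched on both strands for CCAAT, 9 bases and CCACG. The element was in 37 of 27025 genes with a promoter (0.137%) and in 9 of the 38 ER folding genes with one (23.7%). Of all 9614 tested genes with a promoter, 16 held it, and 12 of these 16 (75%) were called lower and 0 higher, with a median log2 fold change of -1.03. The 12 were Acnat2, Alg12, Calr, Canx, Creld2, Derl3, Dnajc3, Hnrnpa3, Hsp90b1, Hspa5, Pdia6 and Syvn1, and the 4 others, Acacb, Pan2, Spats2l and Xlr3a, were not called. Alg12 and Creld2 are neighbours and share 1 element on chromosome 15 (88819520 to 88819538). No match overlapped the E-box letters CACGTG that were also searched. The element is shown in the 250 bases before the start of the 4 ER folding genes that held it and had the largest differences, with its 2 pieces in capitals. Positions count from 0 at the start, and the first base of the element was at -65 in Hspa5 (chr2:34771840-34772089), -126 in Creld2 (chr15:88819396-88819645), -44 in Syvn1 (chr19:6046326-6046575) and -156 in Derl3 (chr10:75893148-75893397). All 4 genes lie on the plus strand, and in Creld2 and Derl3 the element reads on the opposite strand, so its pieces appear as CGTGG and ATTGG.
Hspa5: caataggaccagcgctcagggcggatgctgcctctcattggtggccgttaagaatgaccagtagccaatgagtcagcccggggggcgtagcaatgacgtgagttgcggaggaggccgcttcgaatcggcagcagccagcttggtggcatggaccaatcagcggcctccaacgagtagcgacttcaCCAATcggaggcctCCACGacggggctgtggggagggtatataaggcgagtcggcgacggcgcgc
Creld2: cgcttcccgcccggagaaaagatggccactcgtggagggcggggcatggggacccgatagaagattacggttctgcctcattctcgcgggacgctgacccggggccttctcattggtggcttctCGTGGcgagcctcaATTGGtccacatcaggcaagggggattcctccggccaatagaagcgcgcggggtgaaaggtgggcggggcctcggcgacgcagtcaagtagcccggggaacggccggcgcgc
Syvn1: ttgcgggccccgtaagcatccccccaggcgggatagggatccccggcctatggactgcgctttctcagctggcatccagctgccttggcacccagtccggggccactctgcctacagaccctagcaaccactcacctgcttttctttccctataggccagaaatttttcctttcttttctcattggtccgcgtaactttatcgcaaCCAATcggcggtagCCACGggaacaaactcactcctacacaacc
Derl3: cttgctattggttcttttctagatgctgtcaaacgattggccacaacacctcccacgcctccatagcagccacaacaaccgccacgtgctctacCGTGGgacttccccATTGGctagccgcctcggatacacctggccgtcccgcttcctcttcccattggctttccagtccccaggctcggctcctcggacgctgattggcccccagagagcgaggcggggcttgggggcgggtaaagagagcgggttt
These are the letters of the reference genome, and occupancy by ATF6 or XBP1 was not measured. Sdf2l1 (log2 fold change -3.07) and Manf (log2 fold change -2.64) did not hold these letters in this window. Manf, a secreted ER stress protein at 55.9, 55.8 and 81.8 against 407 and 396 CPM, was chosen after its values were seen, as were the genes above that are named only for holding the element.

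Genes of earlier and later steps of secretion were called lower in part. Of 23 translocon genes 14 were called lower (median log2 fold change -0.70), and of 15 genes of the oligosaccharyltransferase and of sugar donor synthesis 11 were (median -0.81). Sec61a1, the channel through which new proteins enter the ER, was at 109, 98.5 and 111 CPM in the WT Fasting livers and 180.4 and 194 CPM in the WT Refed livers (log2 fold change -0.81 ± 0.09 SE, adjusted p = 0.00677). Ssr1, a subunit of the complex beside the channel, was at 74.9, 70.3 and 70.9 against 144 and 149.5 CPM, Ddost, a subunit of the oligosaccharyltransferase, at 58.6, 59.6 and 65.1 against 119.5 and 123 CPM, and Gfpt1, the entry enzyme of hexosamine synthesis, at 23.4, 22.5 and 26.9 against 68.0 and 66.8 CPM. In all 3 the groups lay far apart relative to the spread between mice, with adjusted p values of 0.00343, 0.0046 and 0.00319. Among COPII coat genes 6 of 13 were called lower, and paralogs of 1 subunit differed. Sec23b was at 23.1, 23.8 and 28.1 against 75.6 and 80.3 CPM (-1.64, adjusted p = 0.00319), while Sec23a was at 102, 96.1 and 87.9 against 80.9 and 81.4 CPM (0.23, adjusted p = 0.149) and was not called. Among COPI and cargo receptor genes 10 of 18 were called lower, led by the cargo receptor Tmed3 at 9.66, 9.56 and 11.4 against 38.8 and 36.7 CPM (-1.89, adjusted p = 0.00319). Apolipoprotein genes and Alb, which encode abundant secreted proteins, did not pass the test. Of 12 apolipoprotein genes edgeR's quasi-likelihood test called 0, with 3 at an unadjusted p under 0.05, and DESeq2 called 3, voomWithQualityWeights 0 and edgeR's exact test 0. Apob was at 7662, 7163 and 7318 against 7262 and 7734 CPM and Alb at 56374, 79087 and 69653 against 56077 and 61138 CPM, with adjusted p values of 0.905 and 0.491. Apoa1 was at 7845, 12254 and 11376 against 8016 and 7304 CPM (0.45, adjusted p = 0.215).

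Cytosolic chaperones were also lower in the fasted livers, with an exception that rests on mouse 3. Of 19 heat shock and cold-inducible genes 11 were called lower and 2 higher, against 8.23% and 4.39% of all genes. Hspa8, the constitutive cytosolic HSP70, was at 1526, 1202 and 1790.5 CPM in the WT Fasting livers and 3179 and 3556 CPM in the WT Refed livers (log2 fold change -1.16 ± 0.18 SE, adjusted p = 0.0156). Hsp90aa1, the inducible cytosolic HSP90, was at 241, 231 and 358 against 935 and 854 CPM (log2 fold change -1.69 ± 0.20 SE, adjusted p = 0.00825). The 2 that rose were Cirbp (1.71, adjusted p = 0.0296) and Rbm3 (0.66, adjusted p = 0.00946), both RNA-binding proteins induced by cold. Mouse 3 was above mice 1 and 2 in 17 of the 19 genes. The inducible HSP70 gene Hspa1b was at 42.2, 33.8 and 230.4 against 154 and 174 CPM, and Hsph1, its nucleotide exchange factor, at 55.9, 47.6 and 148 against 258 and 262 CPM. Neither was called with all 5 livers (adjusted p = 0.608 and 0.08). Without mouse 3, 17 genes of the list were called lower, Hspa1b with a log2 fold change of -2.09 (adjusted p = 0.00061) and Hsph1 with -2.31 (adjusted p = 0.000293). Hspa1a and Hspa1b are near-identical copies, so their separate counts are uncertain.

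Genes for making ribosomes were lower in part, while 3 of 79 genes of the ribosomal proteins themselves were called. Of 10 RNA polymerase I genes 1 was called lower (10%, against 8.23% of all genes), and 3 were called lower without mouse 3. Their median log2 fold change was -0.34, and 6 of them had an unadjusted p under 0.05. DESeq2 called 3, voomWithQualityWeights 3 and edgeR's exact test 2. Of 48 factors for rRNA processing and ribosome assembly 27 were called lower and 0 higher, and 17 lower in the fit of all 10 libraries (median log2 fold change -0.52). Rrp12, a factor for export of ribosomal subunits, was at 9.999, 8.56 and 8.68 CPM in the WT Fasting livers and 21.5 and 25.1 CPM in the WT Refed livers (log2 fold change -1.36 ± 0.12 SE, adjusted p = 0.00485). Nop56, a core protein of the snoRNPs that methylate rRNA, was at 17.6, 14.3 and 14.7 against 33.7 and 41.1 CPM (-1.26, adjusted p = 0.00676), and Gtpbp4, a GTPase of large subunit assembly, at 26.0, 25.3 and 28.4 against 52.7 and 59.0 CPM (-1.07, adjusted p = 0.00484). Npm1 and Ncl, the most abundant of these nucleolar proteins, were not called (0.29, adjusted p = 0.145, and 0.06, adjusted p = 0.719). Of 79 cytosolic ribosomal protein genes tested 1 was called higher and 2 lower (median 0.02). The 2 that fell were Rpl3 at 133, 139 and 151 against 205 and 209 CPM (-0.55, adjusted p = 0.0161) and Rpl7l1 (-0.62, adjusted p = 0.00936), whose product is assigned to early assembly rather than to the mature ribosome. Rplp0 was at 414, 372 and 374 against 359.7 and 379 CPM and was not called (adjusted p = 0.646). Cytosolic aminoacyl-tRNA synthetases, which charge tRNAs, were called lower in 9 of 20 genes, and in 4 in the fit of all 10 libraries (median -0.35), with Farsb at 19.7, 17.9 and 19.7 against 32.3 and 35.6 CPM (-0.83, adjusted p = 0.00798) and Iars at 37.6, 30.5 and 37.7 against 54.8 and 60.9 CPM (-0.71, adjusted p = 0.0202). Mitochondrial ribosomal proteins were called lower in 17 of 76 genes, and in 7 in the fit of all 10 libraries (median -0.20), led by Mrps27 at 17.2, 19.2 and 18.3 against 34.7 and 36.2 CPM (-0.96, adjusted p = 0.00544). Of 34 proteasome genes 3 were called lower and 1 higher (11.8%, against 12.6% of all genes).

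Sterol synthesis was lower in the fasted livers along most of its steps. Of 20 enzymes 12 were called lower and 0 higher, against 8.23% and 4.39% of all genes. Their median log2 fold change was -0.86. Mvd, which decarboxylates mevalonate diphosphate, was at 2.79, 2.64 and 5.82 CPM in the WT Fasting livers and 36.0 and 28.5 CPM in the WT Refed livers (log2 fold change -3.09 ± 0.36 SE, adjusted p = 0.00768). Sqle, squalene epoxidase, was at 11.3, 11.1 and 23.4 against 82.4 and 70.9 CPM (log2 fold change -2.32 ± 0.34 SE, adjusted p = 0.014), and Idi1, the isomerase of isopentenyl diphosphate, at 11.7, 10.3 and 12.9 against 51.7 and 43.7 CPM (log2 fold change -2.04 ± 0.13 SE, adjusted p = 0.00319). In these 3 genes no WT Fasting liver reached the level of a WT Refed liver. The late enzyme Sc5d was not called (-0.20, adjusted p = 0.17). Of 5 genes for regulation and uptake 2 were called lower, among them Stard4, a cytosolic sterol carrier, at 30.4, 31.6 and 32.4 against 99.9 and 79.2 CPM (-1.51, adjusted p = 0.00392). Srebf2, the gene of the pathway's main transcription factor, was at 48.6, 53.4 and 64.1 against 77.6 and 71.5 CPM and was not called (adjusted p = 0.0862). Without mouse 3, all 5 were called lower. In the fit of all 10 libraries 4 of the 20 enzymes were called, and Idi1 was not (adjusted p = 0.172).

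Fatty acid synthesis showed fewer calls than sterol synthesis. Of 12 enzymes 2 were called lower and 0 higher (16.7%, against 12.6% of all genes), and the median log2 fold change was 0.05. In the fit of all 10 libraries 0 were called, and without mouse 3 the counts were 1 higher and 3 lower. Fasn, fatty acid synthase, was at 83.4, 96.7 and 106 CPM in the WT Fasting livers and 172 and 161 CPM in the WT Refed livers (log2 fold change -0.80 ± 0.12 SE, adjusted p = 0.014), and Elovl6, an elongase of its product, at 31.4, 27.9 and 21.6 against 54.6 and 62.4 CPM (log2 fold change -1.12 ± 0.17 SE, adjusted p = 0.0147). Acly (-0.43, adjusted p = 0.0829) and Acaca (-0.26, adjusted p = 0.134), which supply acetyl-CoA and malonyl-CoA, were not called, and Scd1, the stearoyl-CoA desaturase, overlapped between the groups at 405, 873 and 613 against 810.5 and 427 CPM. Srebf1, which encodes the lipogenic SREBP, was at 34.7, 41.8 and 38.5 against 47.1 and 42.9 CPM (adjusted p = 0.215). Insig2, which holds SREBPs in the ER, was called higher at 407, 397 and 279 against 95.9 and 119 CPM (log2 fold change 1.75 ± 0.20 SE, adjusted p = 0.00768). Mid1ip1, an activator of acetyl-CoA carboxylase, was called lower at 6.58, 10.8 and 13.3 against 27.7 and 21.7 CPM (-1.27, adjusted p = 0.0417), and its relative Thrsp was not called at 11.6, 27.2 and 17.1 against 46.0 and 39.9 CPM (-1.21, adjusted p = 0.068).

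Pck1 and G6pc, key enzymes of glucose synthesis, rose. Of 6 gluconeogenic enzymes these 2 were called higher, against 4.39% of all genes. The other 4 were not called, and all 6 had log2 fold changes above 0. G6pc (ENSMUSG00000078650, chromosome 11, 101367561 to 101377903, plus strand), the glucose-6-phosphatase that frees glucose for export, was at 677, 301 and 186 CPM in the WT Fasting livers and 33.1 and 51.4 CPM in the WT Refed livers (log2 fold change 3.20 ± 0.61 SE, adjusted p = 0.0271). Pck1, the cytosolic phosphoenolpyruvate carboxykinase, was at 4692, 3928 and 4342 against 1683 and 1611 CPM, a 2.62-fold difference (log2 fold change 1.39 ± 0.12 SE, adjusted p = 0.0046). Both were higher in every fasted mouse, with a wide spread in G6pc and a narrow one in Pck1. Fbp1 was at 791, 741 and 784 against 612 and 705 CPM and was not called (adjusted p = 0.183). Of 8 regulators 4 were called higher, and 1 in the fit of all 10 libraries. Among the 4 were Ppargc1a, a coactivator of fasting genes, at 12.5, 14.8 and 18.4 against 6.62 and 7.40 CPM (1.12, adjusted p = 0.0194), Foxo1 at 56.0, 58.7 and 57.8 against 43.4 and 34.9 CPM (0.56, adjusted p = 0.0311) and Esrrg, an orphan nuclear receptor, at 6.50, 4.56 and 5.01 against 2.41 and 2.58 CPM (1.10, adjusted p = 0.0299). Of 11 glycolytic genes 1 was called (9.09%, against 12.6% of all genes), Pgam1 (-0.33, adjusted p = 0.0451). Of 14 glycogen genes 0 were called (3 at an unadjusted p under 0.05, and DESeq2 called 1, voomWithQualityWeights 0 and edgeR's exact test 1). Without mouse 3, 2 of the glycogen genes were called higher.

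Of 6 FOXO target genes 3 were called higher, Igfbp1, Ccng2 and Fbxo32, against 4.39% of all genes. Ccng2, an atypical cyclin that restrains the cell cycle, was at 24.7, 17.6 and 29.98 CPM in the WT Fasting livers and 5.20 and 3.86 CPM in the WT Refed livers (log2 fold change 2.41 ± 0.27 SE, adjusted p = 0.00728). Fbxo32, a ubiquitin ligase subunit known from wasting muscle, was at 4.34, 4.28 and 4.27 against 1.33 and 1.07 CPM (log2 fold change 1.84 ± 0.21 SE, adjusted p = 0.00768). Insr, the insulin receptor, was called higher at 139, 123 and 126 against 95.2 and 98.1 CPM (0.42, adjusted p = 0.0348). The receptor was not called in the fit of all 10 libraries, with scaling by library size alone or by edgeR's exact test. Irs2, its adaptor, was at 68.8, 14.1 and 21.5 against 9.85 and 12.9 CPM, where mouse 1 was several times above mice 2 and 3, and it was not called (adjusted p = 0.18). The insulin response element CAAAACA was searched in promoters because FOXO factors bind it. It is short and common, in 1946 of 27025 genes with a promoter (7.2%), in 529 of the 9614 tested genes with one (5.5%), in 43 of 444 genes called higher (9.68%), in 37 of 858 called lower (4.31%) and in 4 of 16 genes of the insulin and FOXO list (25%). It was found in Igfbp1 at position -108 (chr11:7197537-7197786, plus strand of the gene) and in G6pc at -174 (chr11:101367466-101367715), where it reads on the opposite strand. The 250 bases before the RefSeq start of both plus-strand genes are shown with the element in capitals.
Igfbp1: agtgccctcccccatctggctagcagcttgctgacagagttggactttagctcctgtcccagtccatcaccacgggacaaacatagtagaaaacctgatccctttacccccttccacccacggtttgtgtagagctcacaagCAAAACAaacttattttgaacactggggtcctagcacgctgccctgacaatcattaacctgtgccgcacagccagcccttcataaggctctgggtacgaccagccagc
G6pc: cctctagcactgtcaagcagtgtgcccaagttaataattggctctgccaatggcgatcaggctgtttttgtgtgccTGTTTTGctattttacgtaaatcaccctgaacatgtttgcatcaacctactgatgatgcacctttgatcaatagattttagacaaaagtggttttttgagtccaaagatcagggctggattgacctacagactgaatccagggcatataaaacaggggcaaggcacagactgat
A match of letters is no measurement of FOXO binding. The other FOXO letters searched, TGTTTAC, were in 4.05% of all genes with a promoter, in 3.33% of tested genes, in 4.95% of genes called higher and in 2.68% of those called lower.

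Glucocorticoid-responsive genes were the list with the highest share of genes called higher among lists of 8 or more genes. Of 16 tested, 10 were called higher and 1 lower, against 4.39% and 8.23% of all genes. Their median log2 fold change was 0.88. Cebpb, a transcription factor of gluconeogenesis and the acute phase, was at 186, 211 and 165 CPM in the WT Fasting livers and 71.4 and 64.7 CPM in the WT Refed livers (log2 fold change 1.46 ± 0.13 SE, adjusted p = 0.0046). Cebpd, its relative, was at 35.0, 34.4 and 27.6 against 8.62 and 7.33 CPM (log2 fold change 2.02 ± 0.15 SE, adjusted p = 0.00392), and Tsc22d3, the anti-inflammatory protein GILZ, at 149, 201 and 157 against 78.4 and 73.8 CPM (log2 fold change 1.15 ± 0.15 SE, adjusted p = 0.0101). The third C/EBP gene went the other way, with Cebpa at 321, 507 and 450.01 against 839 and 751 CPM (log2 fold change -0.90 ± 0.19 SE, adjusted p = 0.036). The metallothioneins Mt1 and Mt2, which bind zinc and copper, were at 140.4, 223 and 180.2 against 35.9 and 36.8 CPM and at 42.4, 87.5 and 131 against 11.1 and 13.3 CPM (2.32, adjusted p = 0.00469, and 2.83, adjusted p = 0.0206). Fkbp5, a chaperone of the glucocorticoid receptor, did not show the pattern at 70.4, 86.9 and 172 against 101 and 91.6 CPM (adjusted p = 0.762), and mouse 3 lay above the other livers. Per1, a clock repressor that glucocorticoids induce, rose to 50.6, 64.6 and 60.4 against 36.0 and 35.5 CPM (0.71, adjusted p = 0.0205), while Per2 was at 6.33, 14.8 and 20.7 against 47.6 and 44.1 CPM and was not called (-1.72, adjusted p = 0.0554). Bhlhe41, another clock repressor, was called lower at 0.874, 0.818 and 2.70 against 11.5 and 7.45 CPM (-2.67, adjusted p = 0.0311). Of 20 circadian clock genes 2 were called higher and 1 lower (15%, against 12.6% of all genes), with 3 higher and 6 lower without mouse 3. The labels give no time of death, so clock time and feeding cannot be told apart.

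**Figure D5:**
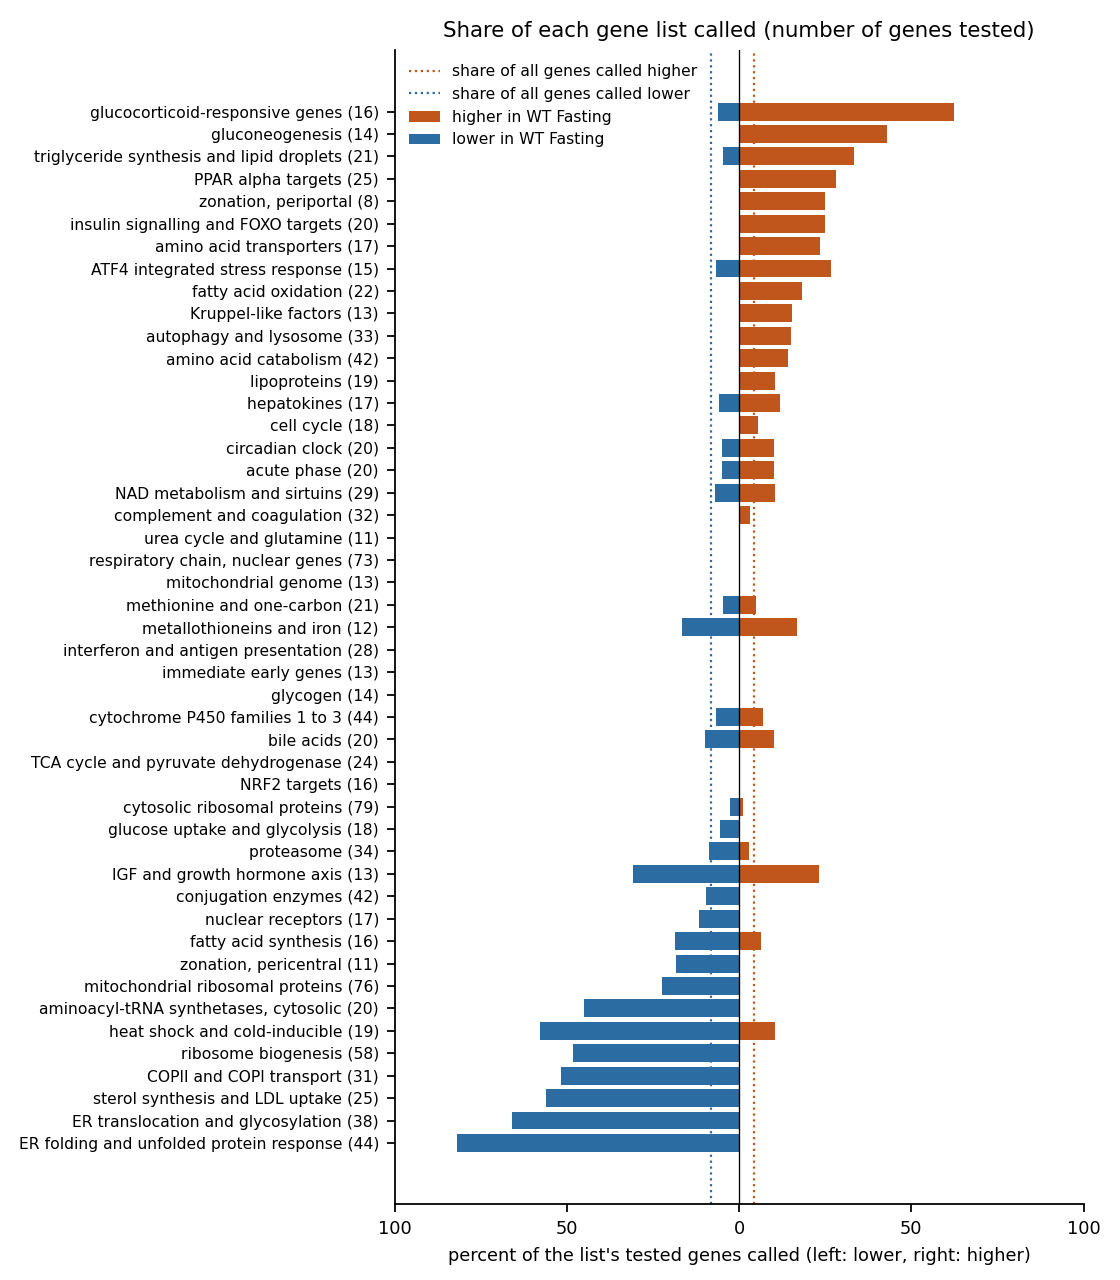
Percent of the tested genes of each list called lower (left, blue) or higher (right, orange) in WT Fasting livers, for lists of 8 or more tested genes; dotted lines mark the shares of all genes, 8.23% lower and 4.39% higher. ER folding (36 of 44 lower) and glucocorticoid-responsive genes (10 of 16 higher) stand at the ends, and the respiratory chain (0 of 73), TCA cycle and glycogen lists hold no called gene.

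Genes of fat storage and PPAR alpha targets were called higher in part. For comparison with the counts that follow, 4.39% of all genes were called higher and 8.23% lower. Of 12 genes for lipid droplets and lipolysis 5 were called higher and 1 lower. Plin2, the main droplet coat of hepatocytes, was at 805, 630.1 and 618 CPM in the WT Fasting livers and 325 and 323 CPM in the WT Refed livers (log2 fold change 1.08 ± 0.14 SE, adjusted p = 0.0106). Pnpla2, adipose triglyceride lipase, was at 192, 177 and 199 against 94.9 and 94.8 CPM, a 2.00-fold difference (log2 fold change 1.00 ± 0.09 SE, adjusted p = 0.0046), while its coactivator Abhd5 was the 1 called lower, at 14.9, 16.4 and 16.9 against 23.9 and 21.6 CPM (-0.50, adjusted p = 0.0313). Of 9 triglyceride synthesis genes 2 were called higher, the phosphatidate phosphatases Lpin1 at 343, 219 and 519 against 105 and 100.0 CPM (1.81, adjusted p = 0.029) and Lpin2 at 395, 303 and 422 against 136 and 95.5 CPM (1.69, adjusted p = 0.00955). Of 25 PPAR alpha targets and partners 7 were called higher and 0 lower, and 13 were without mouse 3. Angptl4 (ENSMUSG00000002289, chromosome 17, 33773750 to 33781830, minus strand), a secreted inhibitor of lipoprotein lipase, was at 275, 242 and 251 against 55.4 and 44.2 CPM (log2 fold change 2.36 ± 0.13 SE, adjusted p = 0.00289). Fgf21, the fasting hormone of the liver, was at 7.60, 3.78 and 8.48 against 1.28 and 0.474 CPM (log2 fold change 2.91 ± 0.55 SE, adjusted p = 0.0265). Pdk4, the kinase that shuts off pyruvate dehydrogenase, was at 41.4, 10.1 and 16.2 against 2.80 and 2.92 CPM (log2 fold change 2.98 ± 0.65 SE, adjusted p = 0.0364). All 3 were higher in every fasted mouse. The abundant omega-hydroxylases Cyp4a10 and Cyp4a14, which belong to a family of close copies, were at 4875, 4405 and 3174 against 3353 and 3106 CPM and at 5648, 4886 and 4059 against 3652 and 3358 CPM, and were called only without mouse 3 (adjusted p = 0.271 and 0.115 with it, 0.0248 and 0.0218 without it). Ppara itself was at 161, 152 and 166 against 130.4 and 101 CPM (adjusted p = 0.0653).

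Of the genes that burn fatty acids 4 of 22 were called higher (18.2%, against 4.39% of all genes) and 0 lower, most of them for uptake and activation. Of 15 mitochondrial beta-oxidation genes 1 was called higher (6.67%), Eci2 (0.61, adjusted p = 0.025), and the median log2 fold change was 0.16. Of 7 genes for uptake and activation 3 were called higher. Cpt1a, which admits long-chain fatty acids to mitochondria, was at 729, 633 and 638 against 466 and 378 CPM (log2 fold change 0.66 ± 0.13 SE, adjusted p = 0.028), and Slc22a5, the carnitine transporter, at 74.7, 57.6 and 54.8 against 34.7 and 27.2 CPM (log2 fold change 1.01 ± 0.18 SE, adjusted p = 0.0217). Acadm, a medium-chain dehydrogenase, was at 637, 681 and 624 against 623 and 554 CPM (adjusted p = 0.376). Slc16a6, a transporter for ketone export, was called lower at 3.96, 3.78 and 4.00 against 8.57 and 11.2 CPM (-1.34, adjusted p = 0.00904). No gene was called among 17 TCA cycle genes, 7 genes of pyruvate dehydrogenase and its regulation without Pdk4, 73 nuclear genes of the respiratory chain and 13 genes of the mitochondrial genome, with or without mouse 3. At an unadjusted p under 0.05 there were 0, 1, 6 and 0 genes in these groups. DESeq2 called 4 and voomWithQualityWeights 1 of the respiratory chain genes and both called 0 in the other 3 groups, and edgeR's exact test called 0 in all 4. Cs, citrate synthase, was at 102, 100.3 and 91.8 against 108 and 110.0 CPM (adjusted p = 0.266), and Atp5b, a subunit of ATP synthase, at 1027, 1117 and 1075 against 985 and 1085 CPM (adjusted p = 0.74).

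Amino acid uptake and stress genes rose in part. The counts below stand against 4.39% of all genes called higher and 8.23% called lower. Of 17 genes listed as amino acid transporters 4 were called higher and 0 lower, and a mitochondrial carrier was among the 4. Slc7a2, a carrier of cationic amino acids, was at 656, 586 and 773 CPM in the WT Fasting livers and 180.4 and 214 CPM in the WT Refed livers (log2 fold change 1.77 ± 0.15 SE, adjusted p = 0.0046). Slc38a2, a carrier of neutral amino acids, was at 158, 129.6 and 163 against 64.3 and 54.4 CPM (log2 fold change 1.34 ± 0.14 SE, adjusted p = 0.00597), and Slc25a47, a mitochondrial carrier of the liver, at 1110.1, 823 and 804 against 329.9 and 202 CPM (log2 fold change 1.78 ± 0.26 SE, adjusted p = 0.014). Of 42 enzymes of amino acid catabolism 6 were called higher and 0 lower, and 1 was called higher in the fit of all 10 libraries. Among the 6 were Tat, the tyrosine aminotransferase, at 2490.1, 1966 and 2375 against 1069.7 and 1285 CPM (0.95, adjusted p = 0.0167), and Cdo1, the cysteine dioxygenase, at 2061, 2163 and 1895 against 1338 and 1354 CPM (0.60, adjusted p = 0.0198). No urea cycle gene of 8 was called, and 0 passed an unadjusted p of 0.05 or were called by DESeq2, voomWithQualityWeights or edgeR's exact test. In the integrated stress response list, 1 of 3 tested genes of amino acid synthesis, Psph, was called lower and 0 higher. Without mouse 3 the count was again 1 lower. Among 12 factors of this response 4 were called higher and 0 lower, with 5 higher and 3 lower without mouse 3. They included the mTOR inhibitors Ddit4 at 23.5, 23.8 and 19.1 against 4.61 and 3.08 CPM (2.52, adjusted p = 0.0046) and Sesn2 at 26.6, 16.2 and 18.5 against 6.53 and 5.60 CPM (1.75, adjusted p = 0.0119). Atf4, the factor itself, was at 90.4, 88.0 and 89.1 against 104 and 113 CPM (adjusted p = 0.0692), and Ddit3, which the ER branch induces, was at 5.46, 5.19 and 10.7 against 13.7 and 18.6 CPM and was called lower only without mouse 3 (adjusted p = 0.0793 with it, 0.00324 without it). Of 33 autophagy and lysosome genes 5 were called higher and 0 lower, with 7 higher and 1 lower without mouse 3. They included Ulk1, the initiating kinase, at 103, 91.9 and 113 against 57.4 and 46.4 CPM (0.98, adjusted p = 0.0119), and Gabarapl1, an LC3 relative, at 326, 334 and 363 against 223 and 192 CPM (0.72, adjusted p = 0.0133).

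In the growth hormone and IGF axis members moved both ways. Of 13 genes 3 were called higher and 4 lower, against 4.39% and 8.23% of all genes. The median log2 fold change was -0.01, and 1 was called higher and 2 lower in the fit of all 10 libraries. Igf1 was at 474, 433 and 389.5 CPM in the WT Fasting livers and 628 and 749 CPM in the WT Refed livers (log2 fold change -0.67 ± 0.12 SE, adjusted p = 0.0242), and Igfals, which holds the hormone in a stable plasma complex, at 55.7, 49.0 and 54.9 against 179.5 and 223 CPM (log2 fold change -1.92 ± 0.12 SE, adjusted p = 0.00319). Ghr, the growth hormone receptor, was at 315, 335 and 280.4 against 468 and 477 CPM (-0.61, adjusted p = 0.0185), and Socs2, a STAT5 target, varied within both groups at 11.1, 2.33 and 2.33 against 17.6 and 38.4 CPM (adjusted p = 0.0918). The binding protein Igfbp2 was called higher at 693, 783 and 555 against 387 and 449 CPM (0.70, adjusted p = 0.0466). The third gene called higher beside Igfbp1 and Igfbp2 was Stat5b, a transcription factor that the growth hormone receptor activates (0.40, adjusted p = 0.0285). Of 12 metallothionein and iron genes 2 were called higher, both metallothioneins, and 2 lower (median -0.05). Of 20 bile acid genes 2 were called higher and 2 lower (20%, against 12.6% of all genes, median 0.08), and 5 were called higher without mouse 3. Tfrc, the transferrin receptor, was at 19.0, 19.0 and 18.3 against 55.5 and 53.1 CPM (log2 fold change -1.53 ± 0.08 SE, adjusted p = 0.00289). Cyp7b1 and Cyp2c70, enzymes of bile acid synthesis, were called lower at 74.7, 57.1 and 67.4 against 139 and 176 CPM and at 10.6, 23.4 and 21.5 against 95.1 and 130.2 CPM (-1.25, adjusted p = 0.00861, and -2.61, adjusted p = 0.0107), and Cyp8b1, the sterol hydroxylase that sets the share of cholic acid, was called higher at 1219, 975 and 827 against 597 and 597 CPM (0.75, adjusted p = 0.0418). Cyp7a1, the rate-limiting enzyme of bile acid synthesis, ranged too widely for a call at 332, 202 and 59.4 against 230.2 and 262 CPM (adjusted p = 0.764).

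NAD metabolism is the subject of the study. Of its 29 genes tested 5 were called (17.2%, against 12.6% of all genes), with a median log2 fold change of 0.06, and in the fit of all 10 libraries 2 were. Of 14 genes of NAD synthesis 1 was called higher and 1 lower, and of 15 genes that use or clear NAD and its products 2 were called higher and 1 lower. Nampt, intact in all 5 mice, was at 63.8, 74.5 and 144 CPM in the WT Fasting livers and 79.8 and 69.7 CPM in the WT Refed livers (adjusted p = 0.558), and mouse 3 lay above the other livers. Sirt1, a deacetylase that consumes NAD, was at 11.1, 10.1 and 10.8 against 7.26 and 6.66 CPM (log2 fold change 0.62 ± 0.12 SE, adjusted p = 0.0285), and Sirt3, its mitochondrial relative, at 65.7, 66.9 and 62.9 against 44.6 and 40.4 CPM (log2 fold change 0.62 ± 0.08 SE, adjusted p = 0.0118). Both were higher in every fasted mouse. Parp1, another consumer of NAD, was called lower at 30.4, 29.6 and 30.8 against 40.2 and 45.4 CPM (-0.50, adjusted p = 0.023), as was Nmnat1, the last enzyme of nuclear NAD synthesis, at 16.3, 17.0 and 14.1 against 23.7 and 21.2 CPM (-0.50, adjusted p = 0.0442).

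Interferon genes were high in mouse 3 alone. Of 28 interferon and antigen presentation genes 0 were called by edgeR's quasi-likelihood test, although their median log2 fold change was 1.52. None passed an unadjusted p of 0.05, and DESeq2, voomWithQualityWeights and edgeR's exact test called 0 as well. Tgtp1, an interferon-induced GTPase, was at 0.874, 0.786 and 473 CPM in the WT Fasting livers and 1.26 and 1.73 CPM in the WT Refed livers (adjusted p = 0.218). Without mouse 3, 1 of the list was called higher and 7 lower and the median log2 fold change was -0.33. Of 20 acute phase genes 2 were called higher and 1 lower (15%, against 12.6% of all genes), with 2 higher and 3 lower without mouse 3. The 2 called higher were Serpina3n (0.45, adjusted p = 0.02) and Lbp, a binding protein of bacterial lipopolysaccharide, at 198, 209.6 and 234 against 124 and 135 CPM (0.73, adjusted p = 0.0131). The 1 called lower was Apcs (-0.61, adjusted p = 0.0311). Of 7 Kupffer cell markers 1 was called higher, Vsig4 at 22.3, 24.7 and 25.2 against 16.1 and 14.8 CPM (0.64, adjusted p = 0.0174). The part of Kupffer cells in the interferon and acute phase values was not tested.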

How the data were processed

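Liver RNA of 5 mice with intact Nampt was analysed, 3 WT Fasting and 2 WT Refed, grouped by their labels. The authors selected polyadenylated RNA, sequenced single short reads and aligned them to the mouse genome GRCm38 with STAR (2.5.1a in the submitters' processing notes). The count files deposited by the authors hold the uniquely aligned reads of each Ensembl gene, from featureCounts (1.4.6-p5 in those notes). The versions in the methods text differ. CPM and RPKM values were deposited beside the counts, the former divided by the library total and the latter by gene length as well, and neither was tested. Whether counting used strand is not given in the sources used here, so antisense and overlapping genes are uncertain. Replicates are different animals.

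Counts were used as deposited, without rRNA genes. Genes above 1 CPM in at least 1 of the 5 libraries were kept. After TMM normalization, the quasi-likelihood test of edgeR 4.0.16 was run in R 4.3.3 with 1 mean per group, the legacy setting of glmQLFit, Benjamini-Hochberg adjustment and a threshold of 0.05. Standard errors (SE) are those of the log2 fold change. All pairs of libraries of the same group differed by more than sampling noise. With 3 against 2 livers, an exact permutation test of 1 value cannot go below a two-sided p of 0.1, so no such p is given. Alternatives were DESeq2 1.42.0, voomWithQualityWeights of limma 3.58.1, edgeR's exact test, other normalizations and filters, all 10 libraries in one fit, a GC content trend (loess span 0.5) taken out of every library, and each library left out in turn.

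Genes, lists and tests were chosen with earlier results of these data known. Named genes are the 10 largest rises and 10 largest falls among called protein-coding genes that averaged 5 CPM or more and had no overlap, up to 4 called genes in each direction and up to 2 uncalled genes of each of 59 lists, the textbook genes marked in each list, and Nampt, Fgf21 and Sirt1. Not every gene so selected is reported. Lists are described by their counts and medians, with no set test. Promoter sequences are those of RefSeq for GRCm38.p6, matched by symbol for 9614 of the 13064 genes.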

Additional observations from a re-analysis of the deposited data

How the results depend on the processing

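Against 1649 genes in the reported fit, 0 were called without either WT Refed library, where 1 refed liver remained, was assumed to vary like the fasted livers and gave no spread of its own, and the count without 1 library at a time ran from 0 to 2513, with 919 without WT Fasting mouse 1, 573 without mouse 2 and 2513 without mouse 3. DESeq2 called 2754 genes and voomWithQualityWeights 2687, the fit to all 10 libraries 957, and 3964 genes had an unadjusted p under 0.05. A required log2 fold change of at least 1 in size left 436. The other scalings, filters, the exact test of edgeR and removal of a GC content trend gave between 1467 and 1681 genes. Scaling by library size alone lowered the share of called genes that were higher in fasting from 34.8% to 26.9%, and DESeq2 raised it to 43.9%. Of the genes described that did not pass the test, a few changed direction, and the cause was not tested. Fkbp5 was at a log2 fold change of -0.093 and Hspa1a at -0.97 with voomWithQualityWeights, and Scd1 was at -0.036 with scaling by library size alone. Without 1 library at a time the log2 fold change ran from -0.049 to 0.039 for Apob, from -0.91 to 0.14 for Cyp7a1, from -0.37 to 0.042 for Ern1, from -0.15 to 0.022 for Fkbp2, from -0.27 to 0.43 for Fkbp5, from -1.52 to 0.74 for Hspa1a, from -0.094 to 0.55 for Nampt, from -0.0095 to 0.12 for Ncl, from -0.35 to 0.58 for Scd1, from -0.82 to 7.31 for Tgtp1 and from -0.22 to 0.69 for Xlr3a. No paired analysis was possible because the fasted and refed livers came from different mice.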
